A study of Mus musculus with 8 samples.

Results

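The thioredoxin and peroxiredoxin genes make up one of the systems with which a cell removes hydrogen peroxide, and 10 of them were followed in LPS-treated macrophages given the bile acid ursodeoxycholic acid (UDCA). They were chosen by gene symbol from the 55487 genes of the table: the thioredoxins Txn1 and Txn2, the thioredoxin reductases Txnrd1 and Txnrd2, the thioredoxin-interacting protein gene Txnip, the sulfiredoxin Srxn1 and the peroxiredoxins Prdx1, Prdx2, Prdx5 and Prdx6. All 10 had a mean of at least 1 TPM and were tested. RNA was sequenced from J774A.1 cells, an immortal mouse macrophage line, and each group had 4 libraries. The LPS group received lipopolysaccharide, which is shed by Gram-negative bacteria and activates macrophages, at 1 μg/mL, and the LPS + UDCA group received the same LPS with UDCA at 1 mM, in both cases for 24 h. Both groups thus carry LPS, no library without LPS was analysed here, and 1 cell line stands for macrophages. The labels do not say that the replicates came from separate cultures, so the p-values measure the spread between these libraries, which may be technical.

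Thioredoxins are small proteins that reduce disulfide bonds in other proteins and are themselves restored by thioredoxin reductases, which draw electrons from NADPH. Peroxiredoxins destroy hydrogen peroxide with a reactive cysteine, and most of them are then recycled by thioredoxin. When peroxide over-oxidizes that cysteine in the typical peroxiredoxins such as Prdx1 and Prdx2, sulfiredoxin repairs it at the cost of ATP. In macrophages these enzymes act beside the burst of reactive oxygen that follows activation, and several of their genes, Srxn1, Prdx1 and Txnrd1 among them, are textbook targets of the transcription factor NRF2, which binds antioxidant response elements.

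The stretches before the starts of 3 of these genes are shown because the genes were higher with UDCA and because the searched motifs lie in them. RefSeq windows of GRCm38.p6 were matched for 9 of the 10 genes, all but Prdx6, with 11 start sites in all. The 250 bases before each start were searched on both strands for TGACNNNGC, a form of the core of the antioxidant response element. TGANTCA, the motif bound by AP-1 factors, and CACGTG, an E-box, were searched in the same way. Other forms of the antioxidant response element core were not searched for, so a window without TGACNNNGC may still hold one. The stretches below run 5′ to 3′ on the strand of the gene, without bases that lie in an annotated exon, and capitals mark the motif matches.
Srxn1, chr2:152105274-152105515, plus strand: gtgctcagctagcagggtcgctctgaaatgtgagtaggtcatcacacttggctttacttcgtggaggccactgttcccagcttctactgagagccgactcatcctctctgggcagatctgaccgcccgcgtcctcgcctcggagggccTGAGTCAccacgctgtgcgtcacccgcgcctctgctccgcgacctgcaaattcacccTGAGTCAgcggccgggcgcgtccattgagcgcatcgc
Prdx1, chr4:116685349-116685543, plus strand: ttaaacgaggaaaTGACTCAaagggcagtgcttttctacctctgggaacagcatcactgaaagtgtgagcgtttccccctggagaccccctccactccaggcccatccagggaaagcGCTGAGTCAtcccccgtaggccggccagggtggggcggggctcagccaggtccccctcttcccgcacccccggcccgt
Txnrd1, the second of 3 start sites, chr10:82859009-82859178, plus strand: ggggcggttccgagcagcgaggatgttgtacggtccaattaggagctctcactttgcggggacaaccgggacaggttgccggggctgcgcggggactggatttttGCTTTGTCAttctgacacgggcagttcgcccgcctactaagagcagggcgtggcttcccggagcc
Srxn1 holds TGANTCA at -102 to -96 and at -45 to -39, counted from the RefSeq start. With the bases after it, the copy at -45 to -39 reads TGAGTCAgc, which differs from TGACNNNGC only by a G in place of the C after TGA. This form is not particular to Srxn1. The window of Txn2, a gene that fell with UDCA, holds it too, as gccctctca, a minus-strand match. It was not searched for in all windows, so the share that hold it was not counted. Prdx1 holds TGANTCA at -237 to -231 and at -131 to -125. The second of these copies overlaps a TGACNNNGC match on the minus strand at -133 to -125. Txnrd1 holds TGACNNNGC on the minus strand at -92 to -84. The windows of the other 6 matched genes held no copy of TGACNNNGC or TGANTCA, and CACGTG was in 0 of the 11 windows. Of all 32851 windows of this length, 10.2% hold TGACNNNGC, 6.75% hold TGANTCA and 6.02% hold CACGTG, and 0.338% hold 2 or more copies of TGANTCA. These matches describe the letters of the windows and are not sites shown to be bound.

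The macrophage label was checked against marker genes. All 8 macrophage markers (Adgre1, Cd68, Csf1r, Itgam, Lyz2, Fcgr1, Ptprc and Spi1) were expressed at 10 TPM or more in each library. Their summed level ran from 3100 to 3258 TPM in the LPS libraries and from 1221 to 1343 TPM in the UDCA libraries, with Adgre1 and Fcgr1 higher and Lyz2, Itgam, Cd68 and Csf1r lower past both thresholds defined below. Of 8 markers of other cell types 7 stayed under 1 TPM in every library, with Cd3e, Epcam and Ly6g at 0 TPM throughout. The one above that level, S100a8, a neutrophil gene that activated macrophages also make, ran from 17.3 to 21.2 TPM without UDCA and from 2.47 to 9.03 TPM with it. The summed level of these 8 genes ran from 18.3 to 21.9 TPM and from 2.49 to 9.22 TPM. Both sums moved with the treatment, and their part in the results below was not tested.

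With UDCA, 5 of the 10 genes rose, 4 fell and 1, Txn1, did not pass the test. Sulfiredoxin rose most, 5.67-fold in mean TPM, and peroxiredoxin 1 rose 1.99-fold, while peroxiredoxin 5 fell to 0.285 of its LPS level. The test was limma on log2(TPM + 1), a linear model for each gene with moderated variances, with Benjamini-Hochberg adjustment over the 11796 genes tested. Genes below are said to rise or fall at a false discovery rate (FDR) under 0.05, and those with a fold change of at least 2 as well are said to pass both thresholds. In what follows, log2 FC is the fitted difference in log2(TPM + 1) between LPS + UDCA and LPS, given ± its standard error (SE), and FDR is the adjusted p. By the FDR alone 9 of the 10 genes changed, against 72.5% of all genes tested, 40.2% higher and 32.3% lower, so this count says little about the 10 genes in particular. Past both thresholds Srxn1 was the 1 higher gene and Prdx5 the 1 lower gene. That share is also close to the 17.1% of all genes tested that passed both, 8.71% higher and 8.44% lower. For the 10 genes the median log2 FC was 0.12, against 0.082 over all genes tested. LPS and UDCA libraries stood fully apart for 9 of the 10 genes, against 66.8% of all genes tested. The libraries pool many cells, so fewer expressing cells and less RNA per cell cannot be told apart.

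**Figure D1:**
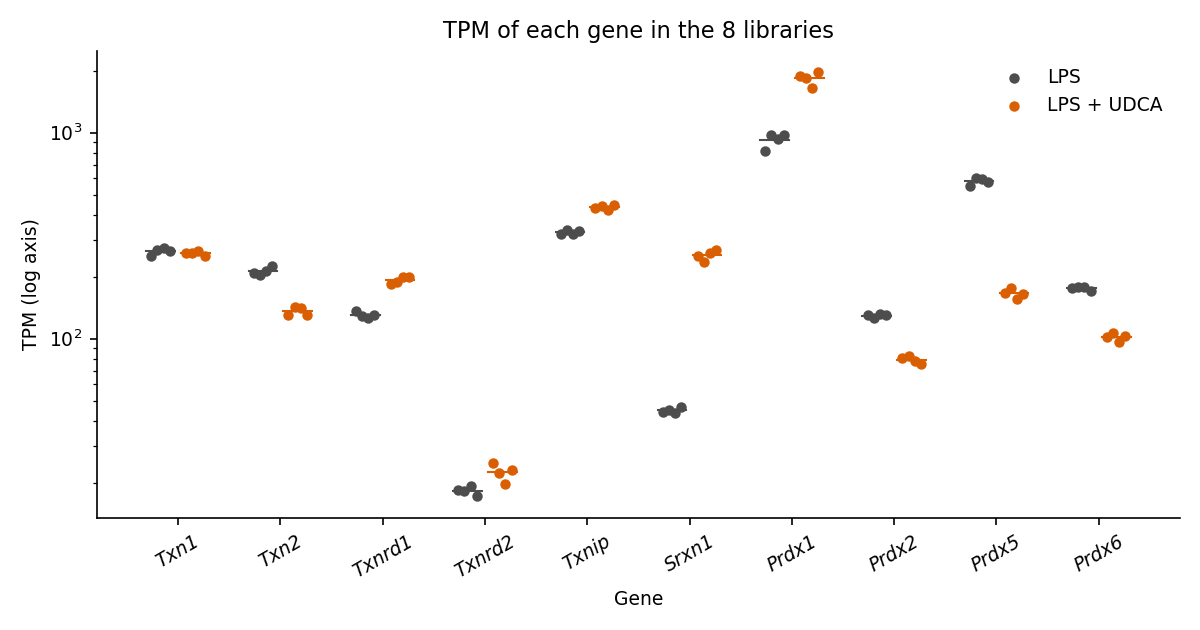
TPM of each of the 10 genes on a log axis, with 1 point for each library, LPS in grey and LPS + UDCA in orange, and a line at the mean of each group. The groups stand apart in every gene but Txn1, with the widest gap in Srxn1, whose LPS libraries lie between 43.7 and 46.6 TPM and whose LPS + UDCA libraries lie between 234 and 269 TPM.

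Srxn1 encodes sulfiredoxin, which repairs over-oxidized peroxiredoxins, and lies on chromosome 2 from 152105516 to 152111376 of GRCm38 (GENCODE M21). It had 43.9, 44.9, 43.7 and 46.6 TPM in LPS replicates 1 to 4. With LPS + UDCA it had 253, 234, 259.97 and 269 TPM. Every UDCA library was thus far above every LPS library, and replicates of a group lay close together. The means were 44.8 ± 1.35 TPM and 254 ± 14.8 TPM (SD, n = 4 each). Limma gave a log2 FC of 2.48 ± 0.048 SE (FDR = 9.6e-10), and 1.08% of the genes tested had a larger change in size. Permuting the 8 libraries exactly (70 arrangements, 2-sided) gave p = 0.029, the smallest value that 4 against 4 can reach, for each of the 10 genes but Txn1. Only 0.738% of its 31-base words occur in another annotated gene.

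Prdx1 encodes the abundant cytosolic peroxiredoxin that sulfiredoxin repairs, and lies on chromosome 4 from 116685544 to 116700822. It was the most abundant of the 10 genes in both groups. The LPS libraries had 817, 969.8, 936 and 974 TPM, and the LPS + UDCA libraries had 1890.1, 1847, 1649 and 1969 TPM. Replicate 1 was the lowest LPS library and replicate 3 the lowest UDCA library, and the groups were far apart. Limma gave a log2 FC of 0.99 ± 0.069 SE (95% interval 0.84 to 1.15, FDR = 1.6e-06), just under the fold change minimum. It passed that minimum with quantile normalization (1.07) and when LPS replicate 2 (1.02), LPS replicate 4 (1.02) or LPS + UDCA replicate 3 (1.04) was left out. Its transcripts share 15.4% of their 31-base words with other annotated genes. The 1 gene with at least 50% of its own words in Prdx1, the look-alike Gm21399, never exceeded 0.18 TPM.

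The other peroxiredoxins among the 10 genes all fell. Prdx5 encodes an atypical peroxiredoxin found in mitochondria, peroxisomes and the cytosol, and lies on chromosome 19 from 6906697 to 6910106. The LPS libraries had 550.4, 605, 596 and 574 TPM, and the LPS + UDCA libraries had 166, 177, 156 and 164 TPM. With LPS it was the second most abundant of the 10 genes and with UDCA the sixth. Limma gave a log2 FC of -1.80 ± 0.045 SE (FDR = 3.5e-09), and 3.39% of the genes tested had a larger change in size. Prdx5 overlaps Trmt112 on the opposite strand, with which it shares 16.9% of its 31-base words. Trmt112 averaged 109 ± 3.65 TPM without UDCA and 118 ± 6.41 TPM with it (limma log2 FC 0.11, FDR = 0.061), and so was not lower where Prdx5 was lower.

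Prdx6, which encodes a peroxiredoxin that uses glutathione in place of thioredoxin and also acts on phospholipids, lies on chromosome 1 from 161240112 to 161251219. It had 176, 177, 178 and 171 TPM with LPS and 102, 106, 96.7 and 102 TPM with LPS + UDCA (limma log2 FC -0.78 ± 0.037 SE, FDR = 1.4e-07). Prdx2, a cytosolic relative of Prdx1, lies on chromosome 8 from 84969587 to 84974834. It had 130.0, 126, 131 and 130.1 TPM with LPS and 80.9, 82.6, 78.1 and 75.1 TPM with LPS + UDCA (limma log2 FC -0.70 ± 0.039 SE, FDR = 3.6e-07). In both genes all UDCA libraries lay below all LPS libraries, with changes of under 2-fold. Prdx2 overlaps 2 genes on the opposite strand that also fell, Junb (log2 FC -0.66) and Rnaseh2a (-0.78), and it shares 4.76% and 4.40% of its words with them. Whether the counting used the strand is not given in the sources used here, and the part of these genes in the value of Prdx2 was not tested.

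**Figure D2:**
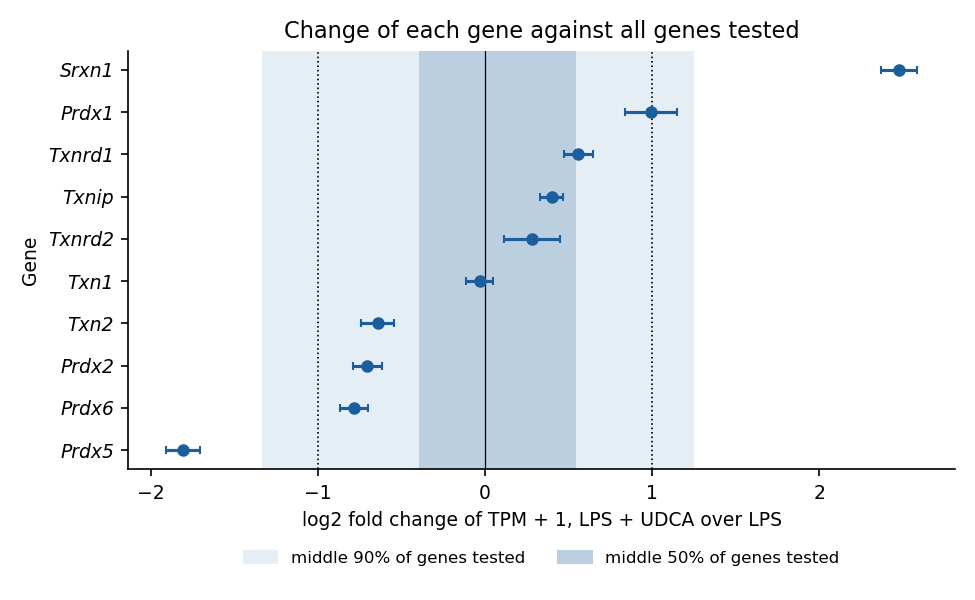
Log2 fold change of TPM + 1, LPS + UDCA over LPS, for each of the 10 genes (point) with its 95% interval from limma (bar), dotted lines at a fold change of 2, and bands for the middle 50% and 90% of the 11796 genes tested. Srxn1 (2.48) and Prdx5 (-1.80) lie outside the wider band, which runs from -1.33 to 1.24, and the interval of Txn1 spans 0.

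Thioredoxins carry the electrons to the peroxiredoxins, and the cytosolic and mitochondrial forms behaved differently. Txn1, the cytosolic and nuclear form on chromosome 4 from 57943373 to 57956411, had 252, 269.97, 275 and 266 TPM with LPS. With LPS + UDCA it had 260.1, 261, 267 and 252 TPM, a range that overlaps that of the LPS libraries. Its log2 FC was -0.031 (limma FDR = 0.45, exact permutation p = 0.4), and its 95% interval from -0.11 to 0.050 does not reach the change of Txn2. With quantile normalization the sign turned (0.064, limma FDR = 0.15). Txn2, the mitochondrial form on chromosome 15 from 77915047 to 77929006, had 209, 204, 214 and 224 TPM with LPS and 131, 142, 141 and 131 TPM with LPS + UDCA. Every UDCA library of Txn2 lay below every LPS library (limma log2 FC -0.64 ± 0.044 SE, FDR = 1.4e-06).

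Both reductases rose. Txnrd1, the cytosolic reductase on chromosome 10 from 82833951 to 82897712, had 135, 129, 126 and 130.3 TPM with LPS and 184, 188, 198 and 199 TPM with LPS + UDCA. Limma gave a log2 FC of 0.56 ± 0.039 SE (FDR = 1.6e-06). Txnrd2, the mitochondrial reductase on chromosome 16 from 18426384 to 18479073, was the least abundant of the 10 genes, with 18.5, 18.3, 19.3 and 17.2 TPM with LPS and 25.01, 22.3, 19.6 and 23.1 TPM with LPS + UDCA. The groups of Txnrd2 nearly touched, at 19.3 and 19.6 TPM, and limma gave a log2 FC of 0.28 ± 0.075 SE (FDR = 0.0076). Of the 31-base words of Txnrd2, 3.20% also occur in other annotated genes. Both reductases are selenoproteins, and the codon that is read as selenocysteine, TGA, is followed by a glycine codon and then by the stop codon. The last 48 coding bases of the longest annotated coding transcript, stop included, show it in capitals, at chr10:82896037-82896039 for Txnrd1 and at chr16:18477772-18477774 for Txnrd2.
Txnrd1: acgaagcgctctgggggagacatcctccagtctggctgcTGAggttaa
Txnrd2: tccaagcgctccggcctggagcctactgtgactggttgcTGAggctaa
Because of this codon, both enzymes depend on the machinery of selenoprotein synthesis, whose genes are described with the other lists.

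Txnip encodes the thioredoxin-interacting protein, an arrestin-like protein that binds and inhibits thioredoxin and limits glucose uptake, and lies on chromosome 3 from 96557957 to 96561883. It had 321, 338, 323 and 333 TPM with LPS and 432, 438, 422 and 444 TPM with LPS + UDCA. All UDCA libraries lay above all LPS libraries, by 1.32-fold in the means (limma log2 FC 0.40 ± 0.030 SE, FDR = 2.6e-06). The antisense gene Gm15441 shares 17.2% of the words of Txnip and had 0.693 ± 0.363 and 0.633 ± 0.137 TPM.

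Levels per length can be compared between genes because TPM divides by length. With LPS the order of mean TPM was Prdx1, Prdx5, Txnip, Txn1, Txn2, Prdx6, Txnrd1, Prdx2, Srxn1 and Txnrd2, and the libraries of neighbours in that order overlapped in 1 case, Txnrd1 and Prdx2 (130.2 and 129 TPM). With LPS + UDCA the order was Prdx1, Txnip, Txn1, Srxn1, Txnrd1, Prdx5, Txn2, Prdx6, Prdx2 and Txnrd2. Here too neighbours overlapped in 1 case, Txn1 and Srxn1 (259.9 and 254 TPM). Sulfiredoxin thus moved from the ninth place to the fourth, at a level per length that could not be told from that of Txn1. Replicates varied little, with a coefficient of variation between 1.72% (Prdx2 with LPS) and 9.89% (Txnrd2 with UDCA).

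To test whether 2 genes of the system changed to a different extent, the log2 ratio of their TPM was taken within each library and compared between groups by an exact permutation test (2-sided, Benjamini-Hochberg adjustment over 5 ratios). The ratio of Txn1 to Txn2 rose by 0.61 on the log2 scale, from 1.25 to 1.91 as a linear ratio. The ratio of Prdx1 to Prdx2 rose by 1.70, from 7.12 to 23.2, and that of Srxn1 to Prdx1 rose by 1.51, from 0.0486 to 0.138. Sulfiredoxin transcripts thus increased by a larger factor than those of the peroxiredoxin it repairs. The ratio of Txnip to Txn1 rose by 0.43, from 1.24 to 1.67. In these 4 ratios no library of one group overlapped the other group (exact permutation p = 0.029, adjusted p = 0.036). Prdx1 was higher and Prdx2 lower in every UDCA library, so the ratio of Prdx1 to Prdx2 had to separate. For Txn1 to Txn2, Srxn1 to Prdx1 and Txnip to Txn1, the ranges of the single genes also forced the ratios apart. The p of these 4 ratios thus adds nothing to the results of the single genes. The ratio of Txnrd1 to Txnrd2 did not pass the test, with log2 values from 2.71 to 2.92 with LPS and from 2.88 to 3.34 with LPS + UDCA (difference 0.27, exact permutation p = 0.057, adjusted p = 0.057). Without LPS + UDCA replicate 1 the difference was 0.34, with an unadjusted exact permutation p of 0.029.

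**Figure D3:**
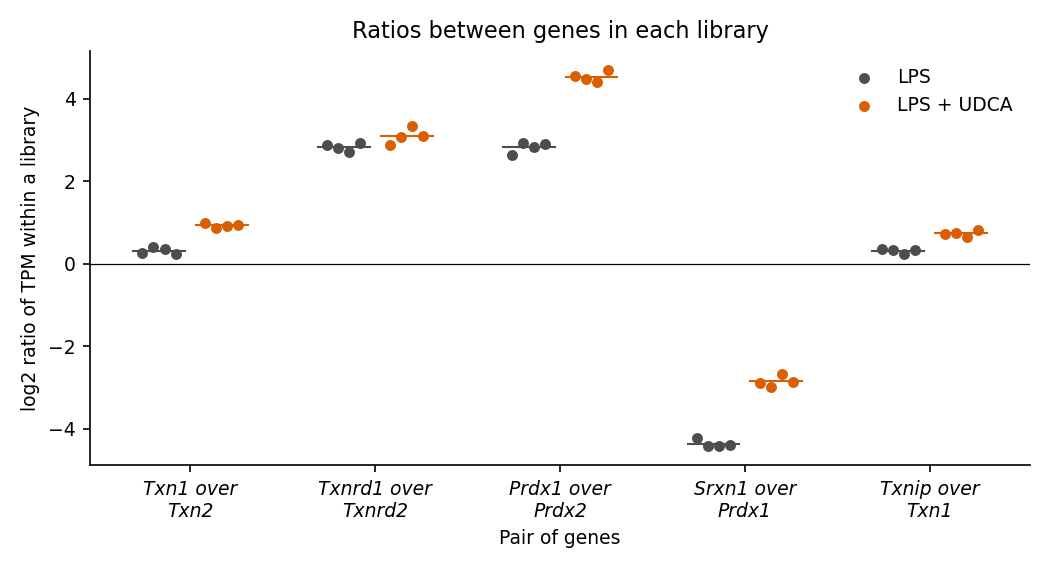
Log2 ratio of TPM of 5 pairs of genes within each library, with 1 point for each library, LPS in grey and LPS + UDCA in orange, and a line at each group mean. The groups are apart in 4 pairs, by the most in Prdx1 over Prdx2 (2.83 and 4.54 on average), and meet in Txnrd1 over Txnrd2.

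Set against the whole peroxiredoxin family, Prdx1 took a larger part of the transcripts with UDCA and Prdx5 a smaller one. The summed TPM of Prdx1 to Prdx6 was 2048 ± 103 with LPS and 2338 ± 142 with LPS + UDCA (SD, n = 4 each). Prdx1 held 45.1% ± 1.47 of that sum with LPS and 78.6% ± 1.21 with LPS + UDCA. Prdx5 held 28.4% ± 0.701 and 7.10% ± 0.363. The shares of Prdx2 (6.33% and 3.40%), Prdx6 (8.59% and 4.36%) and Prdx4 (8.25% and 2.94%) were also lower with UDCA, and that of Prdx3 was 3.38% and 3.59%. These shares are given as a description, without a test.

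**Figure D4:**
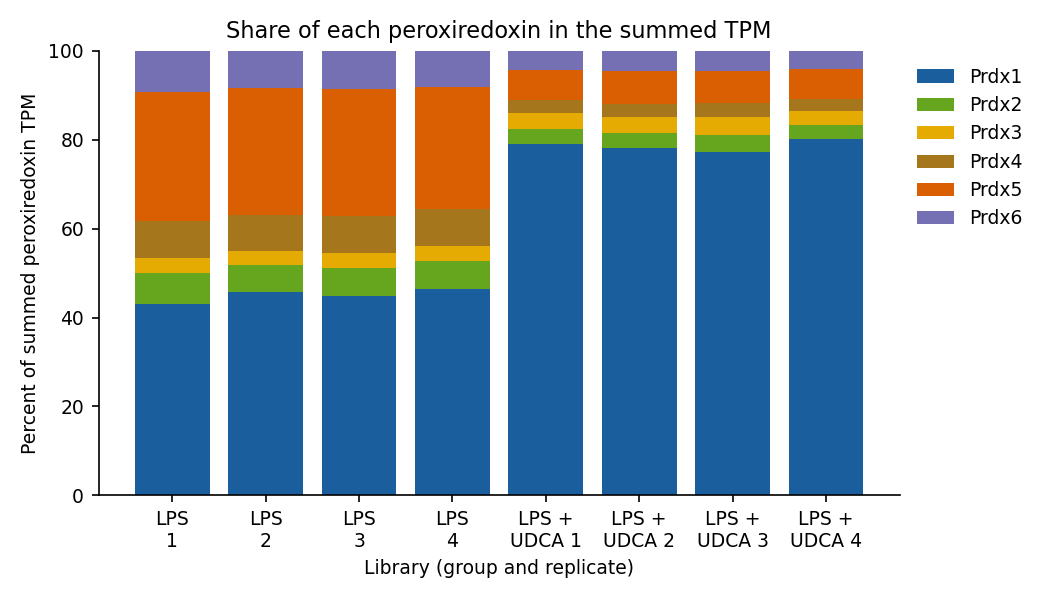
Stacked bars of the percent that each peroxiredoxin gene takes of the summed TPM of Prdx1 to Prdx6, 1 bar for each library, with LPS replicates 1 to 4 at the left and LPS + UDCA replicates 1 to 4 at the right. Prdx1 takes 43.1% to 46.5% without UDCA and 77.3% to 80.1% with it, and Prdx5 shrinks from a mean of 28.4% to 7.10%.

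The wider pathway was read from 6 lists of genes. Over all genes tested 40.2% rose and 32.3% fell, with 8.71% higher and 8.44% lower past both thresholds. The median log2 FC over all genes tested was 0.082. Counts near these shares say little about a list, and no list was tested as a set. Among the remaining genes of the thioredoxin fold, 21 of 25 were tested, 10 rose, 8 fell and 3 did not pass, with a median log2 fold change of 0.071. Past both thresholds none was higher and 3 were lower. Glrx, glutaredoxin 1, which removes glutathione from protein cysteines, fell from 442 ± 15.0 to 60.7 ± 5.59 TPM (log2 FC -2.85). Prdx4, the peroxiredoxin of the endoplasmic reticulum, fell from 169 ± 8.29 to 68.7 ± 2.30 TPM (-1.29), and Glrx5, a mitochondrial glutaredoxin needed for iron-sulfur clusters, fell from 39.4 ± 5.94 to 16.5 ± 2.07 TPM (-1.20). The mitochondrial Prdx3, chosen after its value was seen as the one peroxiredoxin besides Prdx1 that rose, had 69.1 ± 2.55 and 83.5 ± 3.07 TPM (limma log2 FC 0.27, FDR = 0.00034).

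The second list held genes for proteins that receive electrons from thioredoxin or bind it, with the sestrins and some others beside them. Of its 14 genes 12 were tested, 3 rose, 7 fell and 2 did not pass, with a median log2 fold change of -0.58. Rrm2 and Rrm1, the subunits of ribonucleotide reductase, which makes deoxynucleotides with electrons from thioredoxin, fell from 129 ± 3.48 to 11.2 ± 0.334 TPM (-3.42) and from 81.8 ± 3.39 to 15.7 ± 2.06 TPM (-2.31). Msrb1, a selenoprotein that repairs oxidized methionine, fell from 60.9 ± 2.20 to 16.6 ± 2.39 TPM (-1.83). Sesn2, a stress-induced sestrin, rose from 50.7 ± 2.84 to 139 ± 6.22 TPM (1.44). Map3k5, the kinase ASK1 that reduced thioredoxin holds inactive, rose from 1.99 ± 0.372 to 5.91 ± 0.650 TPM (1.21).

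Txnip belongs to the alpha-arrestins, and its transcription is driven by the glucose-sensing Mondo factors. Of the 8 genes listed with it, 6 were tested, 2 rose, 1 fell and 3 did not pass, with a median log2 FC of 0.0084. The related arrestins Arrdc3 (4.28 ± 1.49 to 17.03 ± 3.94 TPM, log2 FC 1.79) and Arrdc4 (1.98 ± 0.363 to 7.04 ± 0.855 TPM, 1.43), both passed both thresholds. Their changes were thus larger than the 0.40 of Txnip on the same scale, a difference that was not tested. The Mondo genes of the list, named after their values were seen, did not rise. Mlx fell from 95.4 ± 4.91 to 71.5 ± 2.73 TPM (log2 FC -0.41). Mlxip did not pass (-0.15, limma FDR = 0.085), and Mlxipl was too low to be tested.

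Among 8 genes of selenoprotein synthesis, all tested, 3 rose, 3 fell and 2 did not pass, with a median log2 FC of 0.045. Sephs2, which makes the selenium donor, fell from 162 ± 4.17 to 69.3 ± 2.54 TPM (log2 FC -1.21). Secisbp2, one of the factors needed for recoding the TGA codon shown above, rose from 7.54 ± 0.599 to 17.4 ± 1.52 TPM (1.11). Of 7 genes for other peroxide-removing enzymes and glutathione reductase 4 were tested, 2 rose, 1 fell and 1 did not pass, with a median log2 FC of 0.45. The catalase gene Cat rose from 40.8 ± 2.36 to 129.5 ± 3.11 TPM (1.64), and Gpx1, the main cytosolic glutathione peroxidase and itself a selenoprotein, fell from 208 ± 4.24 to 76.9 ± 4.47 TPM (-1.43). The other 2 tested genes are named after their values were seen. Gsr, glutathione reductase, rose (log2 FC 0.96), and Gpx4, which protects lipids, did not pass the test (-0.065, limma FDR = 0.19).

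NADPH, the source of electrons for the reductases, comes from a small set of enzymes, and 11 of these genes were tested, with 4 higher, 6 lower and 1 not passing (median log2 fold change -0.43). Me1, the cytosolic malic enzyme, rose from 24.98 ± 1.24 to 52.0 ± 2.34 TPM (1.03). Idh2, the mitochondrial isocitrate dehydrogenase, fell from 75.8 ± 3.08 to 37.2 ± 2.08 TPM (-1.01). Both stood at the edge of the fold change minimum. Me1 was under it with median-of-ratios scaling (0.95), and Idh2 with quantile normalization (-0.99) and without LPS replicate 1 (-0.99), LPS + UDCA replicate 3 (-0.9997) or LPS + UDCA replicate 4 (-0.98).

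**Figure D5:**
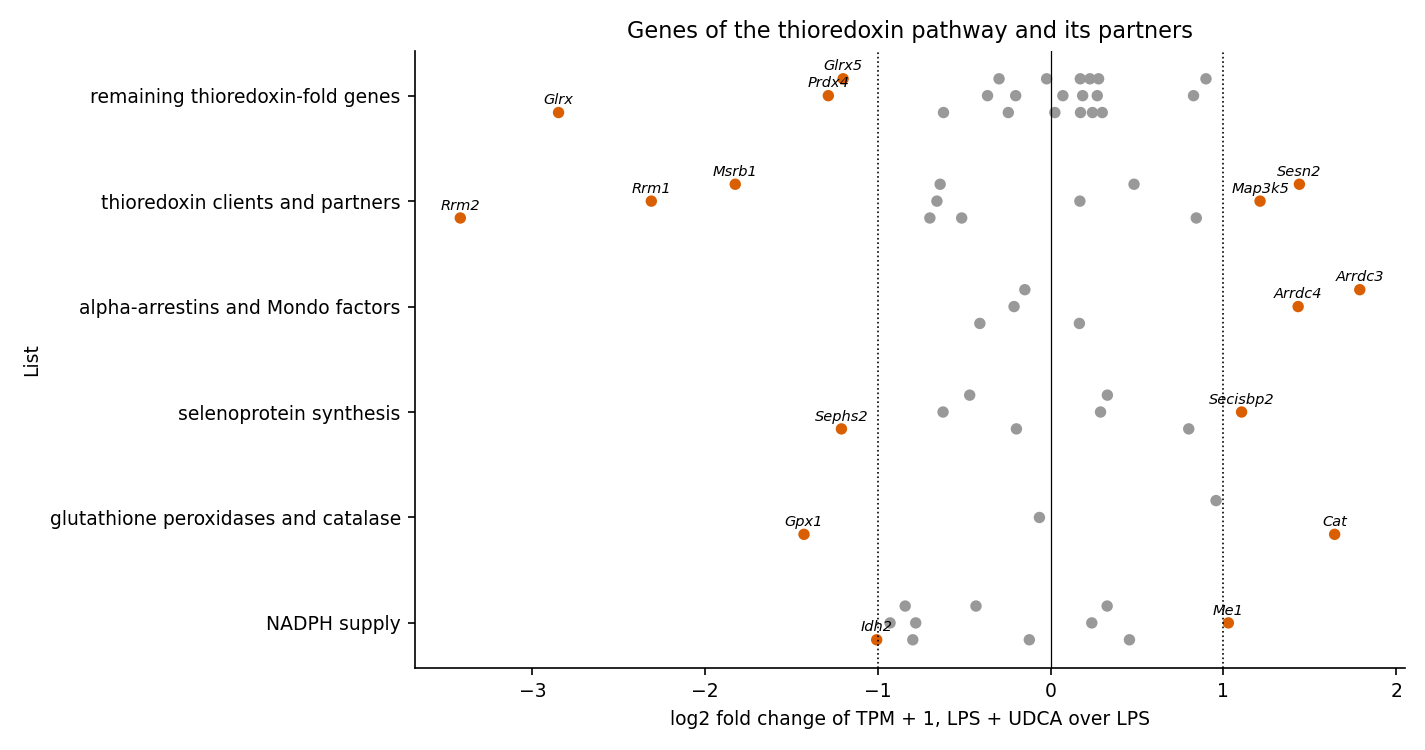
Log2 fold change of TPM + 1, LPS + UDCA over LPS, of each tested gene in the 6 lists (1 point for each gene, spread vertically for legibility), with dotted lines at a fold change of 2 and genes past both thresholds in orange with their names. Rrm2 (-3.42) and Glrx (-2.85) lie farthest to the left and Arrdc3 (1.79) farthest to the right.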

How the data were processed

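RNA of J774A.1 cells (4 libraries per group) was analysed from one table. The authors deposited TPM per gene with 2 decimals, identified by the column sums of 958918 to 977485. All sums fell short of a full TPM column. They were lower in the LPS + UDCA libraries (958918 to 962737) than in the LPS libraries (973190 to 977485), and the reason was not tested. The submitters' processing notes name Bowtie 0.12.2, mm10 and GRCm38, and the counting program and its use of strand are not given in the sources used here. Depth cannot be read from TPM, counting error was therefore not estimated, and precision is the spread between replicates. The 28 pairs of libraries all differed. Groups follow the labels (LPS, LPS + UDCA), while the study's methods speak of UDCA given alone or beside LPS.

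Genes averaging 1 TPM or more (11796) were fitted here as log2(TPM + 1) with limma 3.58.1 (lmFit, eBayes with trend) in R 4.3.3, and tested on simulated data. Thresholds follow the study's methods (fold change of at least 2, FDR under 0.05). Genes named were the 10 chosen ones and, of each list, those past both thresholds (at most 3 highest and 3 lowest). The genes, lists and motifs were chosen with earlier results of these data known. Positions are from GENCODE M21, and windows from RefSeq. Words of 31 bases shared between transcripts were counted in Python 3.11.15. Some genes read beside the 10 are not reported here. Alternatives are given at the end.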

Additional observations from a re-analysis of the deposited data

Results flagged for a closer look

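Each group of 4 values was screened for a library far from the rest, by its distance to the nearest other library as a share of the group's full range (gap ratio), against Dixon's 95% critical value. Of 62 groups of values 2 passed it, where chance gives about 3.1. Neither was one of the 10 genes. For Prdx4, LPS replicate 1 was lowest at 157 TPM, with the other 3 between 172 and 175 TPM (gap ratio 0.875). For Cat, LPS replicate 4 was highest at 44.3 TPM, with the others between 39.4 and 40.1 TPM (gap ratio 0.851).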

How the results depend on the processing

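Of the 10 genes, the direction held under every alternative run except for Txn1 with quantile normalization (0.064, limma FDR = 0.15). With no fold change minimum, 5 of the 10 genes were higher and 4 lower, 24 genes of the 6 lists were higher and 26 lower (7 and 9 past both thresholds), and over all genes tested 4741 were higher and 3807 lower (1028 and 995 past both thresholds). A stricter filter, 5 TPM on average, left 683 genes higher, with fewer genes tested. With quantile normalization 2 of the 10 genes were higher, Srxn1 and Prdx1. With one library left out, between 1 and 2 of the 10 genes were higher and 1 was lower, between 7 and 8 list genes were higher and between 8 and 9 lower, and between 959 and 1122 of all genes were higher and between 972 and 1033 lower. The differences in log2 ratio then ran from 0.59 to 0.64 (Txn1 over Txn2), from 0.19 to 0.34 (Txnrd1 over Txnrd2), from 1.64 to 1.75 (Prdx1 over Prdx2), from 1.45 to 1.56 (Srxn1 over Prdx1) and from 0.41 to 0.46 (Txnip over Txn1). The exact permutation p stayed at 0.029, the smallest that 7 libraries can give, in all of these but Txnrd1 over Txnrd2, where it ran from 0.029 (without LPS + UDCA replicate 1) to 0.11. Adding the look-alike gene to Prdx1, an alternative chosen after seeing the data, changed no call.

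The groups share replicate numbers, and nothing in the labels says what a number shares. Deviations from the group means correlated by -0.035 to 0.15 within the 4 same-numbered pairs (mean 0.088) and by -0.14 to 0.16 within the 12 others (mean -0.029). A correlation over 0.1 in every pair was asked for and not met, so the libraries were treated as unpaired. That 5 of 8 libraries correlated best with their own number is a hint of pairing from the data, not from the design. With the replicate block, 1 of the 10 genes was higher and 1 lower, as without it, and 1034 of all genes were higher and 1000 lower. In the paired exact permutation test of the log2 ratios the differences were the same (0.61, 0.27, 1.70, 1.51 and 0.43 in the order above), and 4 pairs cannot give a p under 0.125, so none could pass.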

Other observations

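One transcript beside the thioredoxin system was chosen after its values were seen. Gm38560, a noncoding RNA gene that is annotated as sharing a bidirectional promoter, runs on the opposite strand from the second start site of Txnrd1. The first exon of Gm38560 begins within the 250 bases before that start. Its level averaged 1.47 ± 0.531 TPM in the LPS libraries and 6.12 ± 0.442 TPM in the UDCA libraries (SD, n = 4 each). Limma gave a log2 FC of 1.55 ± 0.15 SE (FDR = 1.6e-05), against 0.56 for Txnrd1 itself. None of the 31-base words of Txnrd1 occurs in it. The difference between the 2 changes was not tested.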
